A study of Mus musculus with 8 samples.

Results

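The expression of 10 transcription factor genes that mark the mimetic cell lineages of the thymic medulla was followed in cortical and medullary thymic epithelial cells (cTECs and mTECs) of mice. The genes were listed by name, and earlier results of these data were known when they were chosen. They were Spib and Sox8 for microfold cells, Foxj1 for ciliated cells, Hnf4a and Hnf4g for gut and liver cells, Ptf1a for pancreatic cells, Insm1 and Neurod1 for neuroendocrine cells, Myog for muscle and Foxi1 for ionocytes. All 10 were found among the 27179 gene identifiers of the deposited count files. Of these, 9 passed the filter for testing (2 or more libraries at 1 CPM or above; CPM is a gene's counts scaled to a common library size), and Neurod1 did not.

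The study sequenced polyadenylated RNA from 8 libraries of C57BL/6 mice: 4 wild-type (WT) cTEC libraries, 2 WT mTEC libraries, 1 Mcl1 knock-out (KO) cTEC library and 1 KO mTEC library. Mcl1 encodes an anti-apoptotic protein of the BCL-2 family. The labels give no age, no treatment, no Cre driver, no deleted part of the gene and no pooling of mice. The submitters call the WT libraries biological replicates, and nothing in the labels ties a library to a mouse, so the p-values measure the spread between these libraries. Each KO group is a single library without a replicate check, and the tests assume that it varies like the WT libraries.

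Total counts were 11516780 to 19171953 per library, and 17800 genes (KO cTEC) to 22708 genes (WT mTEC 2) had a count. All CPM values below are scaled by TMM, a correction for RNA composition. Mcl1 was at 228, 302, 259 and 241 CPM in WT cTEC libraries 1 to 4 and at 8.23 CPM in KO cTEC. It was at 113 and 203 CPM in WT mTEC libraries 1 and 2 and at 78.7 CPM in KO mTEC. The KO library was thus below every WT library in both populations, by far more in cTECs. The same position was held by 32.9% of all genes tested in cTECs and 41.7% in mTECs. In mTECs no gene passed the test of KO against WT, Mcl1 included. The cortical marker list (Psmb11, Prss16, Ackr4, Ly75 and Tbata) summed to 1798 to 3310 CPM in WT cTEC, 4189 CPM in KO cTEC, 631 to 798 CPM in WT mTEC and 879 CPM in KO mTEC. Aire, the regulator of tissue-restricted antigens in mTECs, was also counted in the WT cTEC libraries, at 28.9 to 116 CPM. It was at 339 and 554 CPM in WT mTEC, at 457 CPM in KO mTEC and at 0 counts in KO cTEC. The source of the Aire RNA in the WT cTEC libraries was not tested.

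Medullary thymic epithelial cells display proteins of peripheral tissues to developing T cells, so that self-reactive cells can be removed or diverted. Part of this display comes from mimetic cells, mTECs that take on features of a peripheral cell type under a transcription factor that defines that type outside the thymus. Spib is an ETS factor of antigen-sampling microfold cells, and Sox8 acts with it. Foxj1 drives motile cilia, Hnf4a and Hnf4g are nuclear receptors of the intestine and liver, and Ptf1a is a basic helix-loop-helix factor of pancreatic acinar cells. Insm1 and Neurod1 act in endocrine and neuronal cells, Myog in skeletal muscle differentiation, and Foxi1 in acid-base regulating ionocytes.

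Promoter sequences are shown for the members that had no count in KO cTEC and an entry in the RefSeq promoter table (GRCm38.p6, the same build as mm10). Insm1 was also at 0 counts there and has no entry. Each is the 150 bases before an annotated start, written 5′ to 3′ on the strand of the gene, with matches to the motifs searched in capitals. The motifs were the E-box CANNTG, to which basic helix-loop-helix factors bind, the HNF1 half-site GTTAAT, the forkhead core TGTTTA, the SOX core ACAAAG and the ETS core GAGGAA, each searched on both strands, and no matches shown overlap.
Myog (chr1:134289854-134290003, plus strand): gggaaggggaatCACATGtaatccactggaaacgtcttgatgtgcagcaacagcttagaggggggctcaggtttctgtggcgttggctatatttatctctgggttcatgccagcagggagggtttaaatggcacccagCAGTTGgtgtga
Ptf1a (chr2:19445513-19445662, plus strand): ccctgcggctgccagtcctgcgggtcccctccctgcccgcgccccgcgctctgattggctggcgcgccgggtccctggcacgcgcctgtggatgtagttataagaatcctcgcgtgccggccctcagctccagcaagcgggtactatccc
Neurod1 (chr2:79456637-79456786, minus strand): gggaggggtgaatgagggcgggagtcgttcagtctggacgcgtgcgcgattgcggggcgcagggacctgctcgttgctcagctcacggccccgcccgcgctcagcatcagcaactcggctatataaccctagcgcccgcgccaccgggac
Hnf4a, first start (chr2:163506707-163506856, plus strand): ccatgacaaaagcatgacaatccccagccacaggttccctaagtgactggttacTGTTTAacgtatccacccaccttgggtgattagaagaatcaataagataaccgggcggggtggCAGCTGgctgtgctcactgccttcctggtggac
Hnf4a, second start (chr2:163547005-163547154, plus strand): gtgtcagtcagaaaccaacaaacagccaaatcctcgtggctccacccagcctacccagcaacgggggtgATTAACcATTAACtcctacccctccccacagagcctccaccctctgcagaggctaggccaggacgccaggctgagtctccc
Foxi1 (chr11:34208090-34208239, minus strand): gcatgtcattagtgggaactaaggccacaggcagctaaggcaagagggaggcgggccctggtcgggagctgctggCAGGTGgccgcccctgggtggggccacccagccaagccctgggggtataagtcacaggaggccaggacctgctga
Myog held 2 E-boxes, with first bases 138 and 12 bases before the start. The first start of Hnf4a held an E-box at 33 and a forkhead core at 96 bases, and its second start held 2 HNF1 half-sites at 81 and 74 bases. The first Hnf4a window runs past the start of the gene interval given below, and its E-box lies inside that interval. Foxi1 held an E-box at 75 bases. Ptf1a and Neurod1, themselves genes of E-box binding factors, held none of the 5 motifs in this window. Of 32851 promoter windows of this length, 47.7% hold an E-box, 3.71% an HNF1 half-site, 6.93% a forkhead core, 9.88% a SOX core and 14.5% an ETS core, and a match is a description of letters, not of binding.

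Most members were low or undetected in the KO cTEC library. Of the 9 tested members 6 were lower than in WT cTEC (Spib, Sox8, Foxj1, Insm1, Myog and Foxi1) and none was higher, by the quasi-likelihood test of edgeR with Benjamini-Hochberg adjustment over 18163 genes. Among all genes tested 17.5% were called, 12.4% lower and 5.1% higher. The KO library lay below all 4 WT libraries for 7 of the 10 members, against 32.9% of all genes tested, and above them for none, against 29%. It lay within them for 3 members, against 38.1%. In the KO library 6 members had no count, against 11% of all genes tested. Of these 6, Hnf4a, Ptf1a and Neurod1 had WT cTEC means of only 0.433 to 1.31 CPM. Neurod1 did not pass the filter that all genes tested had passed. Hnf4a, Hnf4g and Ptf1a did not pass the test. In bulk RNA, fewer cells of a type and less RNA per cell cannot be told apart. With limma-voom the count of members called fell to 1, Spib (adjusted p = 0.0156). Without WT cTEC 3, WT mTEC 1 or WT mTEC 2 it was 5.

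**Figure D1:**
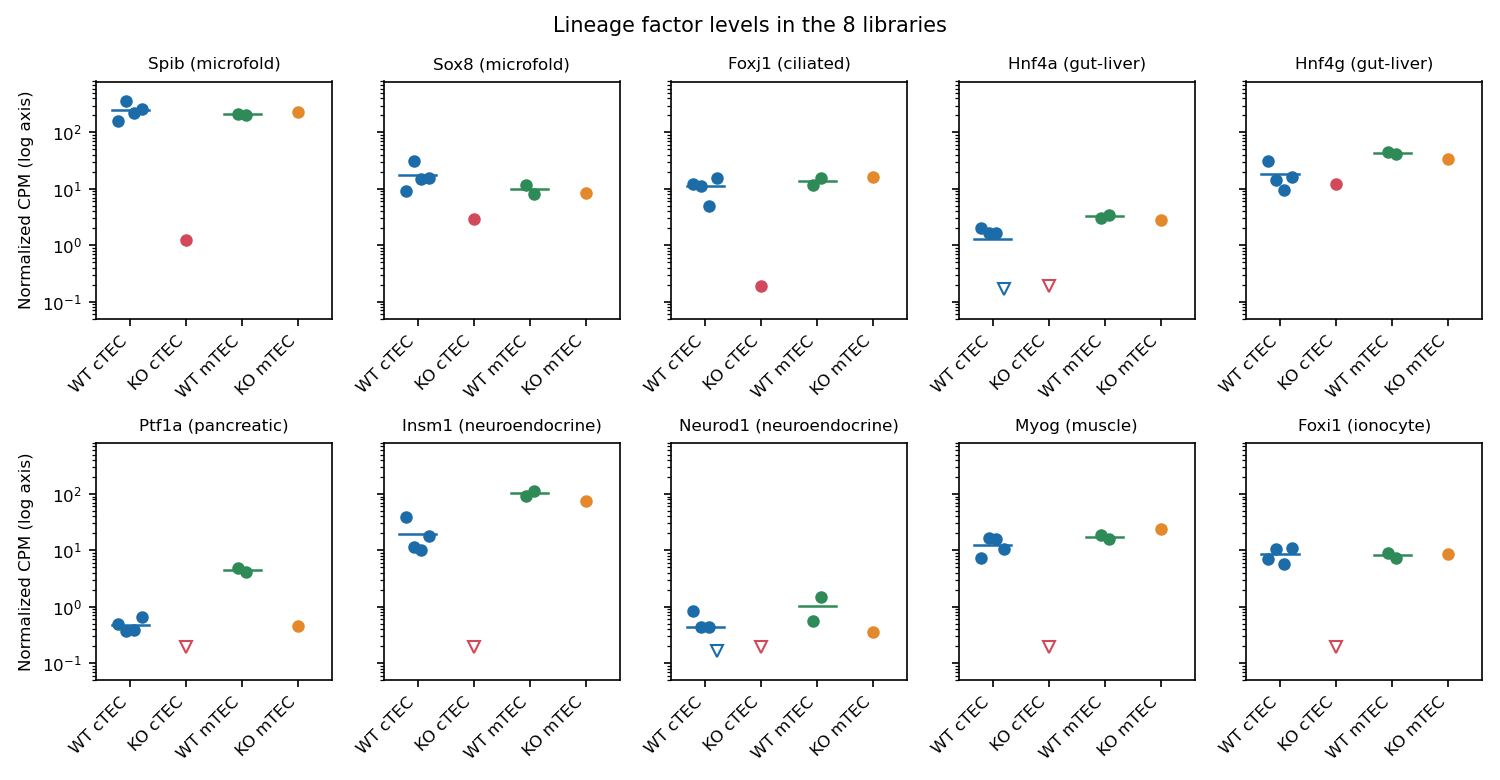
Normalized CPM of the 10 lineage factors in the 8 libraries (log axis), by group; each point is 1 library, short lines are means of the WT groups, and open triangles are libraries at 0 counts, drawn at the level of 3 counts. The KO cTEC points of Spib, Foxj1, Insm1, Myog and Foxi1 sit far below the 4 WT cTEC points, while the KO mTEC points of these 5 genes sit close to the WT mTEC points.

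In WT mice Ptf1a, Insm1 and Hnf4g were higher in mTECs than in cTECs, and the other 6 tested members were not called. Among all genes tested 27% were called, 13.2% higher and 13.9% lower in mTECs. Both mTEC libraries lay above all 4 cTEC libraries for 4 of the 10 members (Hnf4a, Hnf4g, Ptf1a and Insm1), against 30.3% of all genes tested, and below them for none, against 24.7%. All 3 calls were lost without WT mTEC 1 and without WT mTEC 2. This comparison and that of KO cTEC use the same WT cTEC libraries.

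In mTECs no member was called between KO and WT, as for all genes tested, where edgeR called 0% and 1502 genes had an unadjusted p under 0.05. The member with an unadjusted p under 0.05 was Ptf1a. DESeq2 called 141 genes and none of the members, and limma-voom called no gene. The KO mTEC library was below both WT libraries for 5 members, against 41.7% of all genes tested, above both for 3, against 38.6%, and between them for 2, against 19.6%. No member was at 0 counts in it, against 1.29% of all genes tested.

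The KO effect in mTECs minus that in cTECs was called above 0 by edgeR for 5 of the 9 tested members (Spib, Foxj1, Insm1, Myog and Foxi1) and below 0 for none. The fitted difference of the other 4 was also above 0 and did not pass, and its sign is not settled for each of them. Hnf4a and Ptf1a had no count in KO cTEC. For Ptf1a the limit there was at least 2.47-fold lower, while the WT mTEC mean was 9.8 times the KO mTEC value. The counts thus also allow a difference below 0 for Ptf1a. The sign of Hnf4g turned without WT cTEC 1. Among all genes tested 6.81% were called, 6.16% higher and 0.644% lower. With limma-voom none of the 5 was called. Insm1 was not called without WT mTEC 1 (adjusted p = 0.068) or without WT mTEC 2 (adjusted p = 0.0586).

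**Figure D2:**
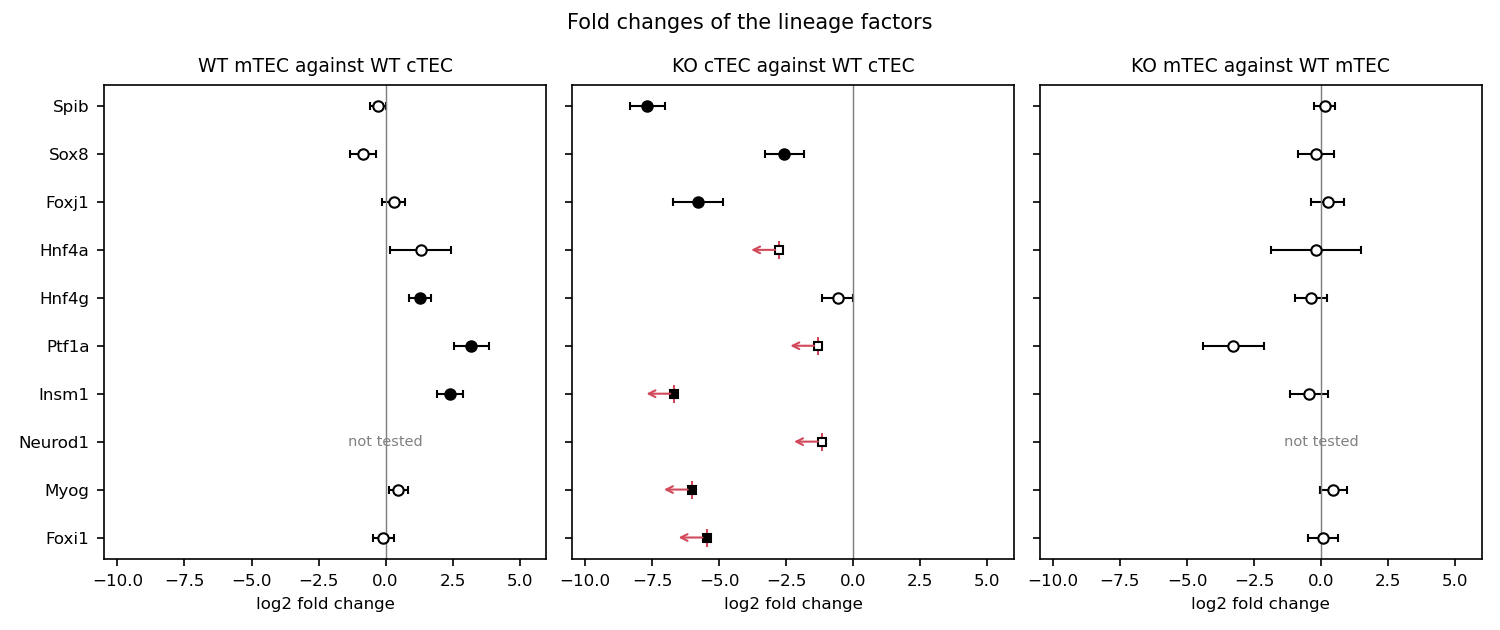
Log2 fold change of each lineage factor in 3 comparisons; circles are fitted values with bars of 1 SE, squares with arrows are limits (the WT mean over 3 counts in the KO library) for members with no count in KO cTEC, and filled symbols passed an adjusted p under 0.05. In the middle panel 6 members are filled, in the left panel 3, and in the right panel none.

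Spib (Entrez 272382, chromosome 7, 44525995 to 44532087, mm10) was the most abundant member in every group but KO cTEC, where Hnf4g and Sox8 were above it. It was at 162, 367, 219 and 258 CPM in WT cTEC libraries 1 to 4, a mean of 252 ± 86.6 CPM (SD, n = 4), and at 1.22 CPM (19 counts) in KO cTEC. It was at 208 CPM in each of the WT mTEC libraries and at 228 CPM in KO mTEC. The KO cTEC library was thus far outside the range of the other 7 libraries, which overlapped. The log2 fold change of KO against WT was -7.68 ± 0.64 (SE) in cTECs (edgeR adjusted p = 0.000228) and 0.13 ± 0.40 in mTECs (adjusted p = 0.975). The KO effects differed by 7.81 ± 0.71 (adjusted p = 0.000815). WT mTEC against WT cTEC gave -0.27 ± 0.29 (adjusted p = 0.509).

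Sox8 (Entrez 20681, chromosome 17, 25565893 to 25570686, mm10) was at 9.27, 31.2, 14.8 and 15.7 CPM in WT cTEC libraries 1 to 4 and at 2.96 CPM (46 counts) in KO cTEC. It was at 11.7 and 8.08 CPM in WT mTEC and at 8.59 CPM in KO mTEC. The WT libraries of both populations overlapped, and the KO cTEC library was the lowest of the 8. Sox8 fell by 2.58 ± 0.73 on the log2 scale in KO cTEC (edgeR adjusted p = 0.0445). Sox8 no longer passed without WT cTEC 3 (adjusted p = 0.0682), WT cTEC 4 (0.0607), WT mTEC 1 (0.0735) or WT mTEC 2 (0.0695), and with limma-voom (0.141). The difference of the KO effects did not pass (2.38 ± 0.94, adjusted p = 0.207).

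Of 9 other genes of the microfold lineage, 7 were lower and 1 was higher in KO cTEC, with a median log2 fold change of -5.49 against -0.14 for all genes tested, of which 12.4% were called lower. Ccl20, a chemokine that draws CCR6-bearing cells, was at 230, 528, 483 and 373 CPM in WT cTEC libraries 1 to 4 and at 0.386 CPM (6 counts) in KO cTEC (edgeR adjusted p = 0.000249). Gp2, a receptor for bacteria on microfold cells, was at 394 to 1733 CPM in WT cTEC and 126 CPM in KO cTEC, and fell by 3.12 ± 0.78 (adjusted p = 0.0298). Marcksl1, an actin-binding protein, rose by 0.85 ± 0.19 (adjusted p = 0.0196), and was also the 1 gene of the list that was higher in WT mTEC than in WT cTEC (0.69 ± 0.16, adjusted p = 0.0157). Anxa5, a phospholipid-binding protein, was at 977 to 1354 CPM in WT cTEC and 636 CPM in KO cTEC and did not pass (adjusted p = 0.0606), though it did without WT cTEC 1 (0.0302). Gp2 missed the threshold without WT cTEC 3, WT mTEC 1 or WT mTEC 2 (adjusted p = 0.0503 to 0.0536), and the rise of Marcksl1 in KO cTEC without WT cTEC 3 (0.0511). No gene of the list was higher in mTECs without WT mTEC 1 or WT mTEC 2.

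Spib is also used by B cells and plasmacytoid dendritic cells, so their markers were read beside it. The B cell list, which includes Cd79a and Cd79b of the B cell receptor, summed to 27.6 to 41.3 CPM in WT cTEC and 4.56 CPM in KO cTEC, where Ms4a1 and Pax5 were at 0 counts and 2 of the 6 genes were called lower. In WT mTEC it summed to 53 to 59.3 CPM and in KO mTEC to 77 CPM. The plasmacytoid list summed to 364 to 438 CPM in WT cTEC and 491 CPM in KO cTEC. In KO cTEC Cox6a2 and Klk1 were at 0 counts, though every gene of the list had a count in WT cTEC. Of the 6 genes 1 was called lower and 1 higher in KO cTEC. Siglech, another gene of the list, was at or under 0.163 CPM in all 5 cTEC libraries. The part of these cells in the Spib values was not tested.

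Foxj1 (Entrez 15223, chromosome 11, 116330704 to 116335499, mm10) was at 12, 11.4, 5.05 and 15.8 CPM in WT cTEC libraries 1 to 4 and at 0.193 CPM (3 counts) in KO cTEC. It was at 11.7 and 15.5 CPM in WT mTEC and 16.2 CPM in KO mTEC. The WT mTEC libraries lay within the WT cTEC range, and KO mTEC just above it. The WT cTEC mean was 57.3 times the KO value, with a 95% interval of 19.6 to 278 for counting error alone. The test of KO against WT passed in cTECs (edgeR adjusted p = 0.00428), and the KO effects differed by 6.04 ± 1.07 on the log2 scale (adjusted p = 0.0127).

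Of 21 other ciliated cell genes 5 were lower and none higher in KO cTEC, against 12.4% of all genes tested called lower (median log2 fold change -2.73 with genes at 0 counts set at their limit). Tppp3, a tubulin-binding protein, fell by 2.73 ± 0.49 (edgeR adjusted p = 0.00701), from a mean of 85.6 ± 34.3 CPM (SD, n = 4) to 12.9 CPM. Myb, which acts early in multiciliated cells and also in blood progenitors, fell by 2.75 ± 0.46 (adjusted p = 0.00492). Pifo, a protein of primary and motile cilia, was at 4.72 to 7.13 CPM in WT cTEC and had no count in the KO library, a level at least 31.2-fold lower (adjusted p = 0.000939). Dnah9, an outer dynein arm heavy chain of motile cilia, was at 36.9, 16.2, 13.1 and 13.5 CPM in WT cTEC and 15.1 CPM in KO cTEC, inside the WT range (adjusted p = 0.666). Without WT cTEC 1, in which most of these genes were highest, 9 were lower and 1 was higher in KO cTEC, and the sign of Dnah9 turned (0.09). In WT mTEC 2 of the 21 were higher and 1 lower than in WT cTEC, against 13.2% and 13.9% of all genes tested, with 8 higher without WT cTEC 1 and none higher without WT mTEC 1 or WT mTEC 2. Rsph1, a radial spoke protein, was higher there by 1.88 ± 0.47 (adjusted p = 0.0219), which also no longer passed without WT cTEC 2 (0.0556). The KO mTEC library was below both WT libraries for 14 of the 21, against 41.7% of all genes tested, and none passed.

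Hnf4g (Entrez 30942, chromosome 3, 3508030 to 3659800, mm10), a nuclear receptor of the intestine, was at 31.5, 14.4, 9.5 and 16.4 CPM in WT cTEC libraries 1 to 4 and at 12 CPM (186 counts) in KO cTEC, inside the WT range. It was at 45.2 and 41.6 CPM in WT mTEC and 33.6 CPM in KO mTEC. The log2 fold change in KO cTEC was -0.58 ± 0.57 (edgeR adjusted p = 0.511), and Hnf4g was the member with the most counts in the KO cTEC library. It was higher in WT mTEC than in WT cTEC by 1.28 ± 0.40 (adjusted p = 0.0472). This call was lost with library totals alone (adjusted p = 0.0586) and without any 1 of WT cTEC 2, 3 or 4 (0.0775 to 0.108).

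Hnf4a (Entrez 15378, chromosome 2, 163506811 to 163572907, mm10) was near the limit of detection. It was at 2, 1.62, 1.63 and 0 CPM in WT cTEC libraries 1 to 4, with 28, 22, 30 and 0 counts, and at 0 counts in KO cTEC. It was at 3.08 and 3.38 CPM in WT mTEC and 2.8 CPM in KO mTEC. KO cTEC was at least 6.81-fold below the WT cTEC mean, taking 3 counts as the level that 0 counts allows, but WT cTEC 4 was at 0 as well. The edgeR test did not pass (adjusted p = 0.152). It passed without WT cTEC 4 (adjusted p = 0.0119) and with DESeq2 (adjusted p = 0.0444). WT mTEC against WT cTEC gave 1.30 ± 1.14 (adjusted p = 0.421).

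Of 18 other gut and liver genes 14 were lower and none higher in KO cTEC, against 12.4% of all genes tested called lower, with a median of -7.00 (genes at 0 counts at their limit). With limma-voom 1 was lower, and Apoa4 (adjusted p = 0.231), Lypd8 (0.362) and Cdhr5 (0.109) were not called. Of the 18, 8 had no count in KO cTEC, against 11% of all genes tested. Reg3g, a secreted antibacterial lectin, was at 1543, 2397, 1463 and 2275 CPM in WT cTEC libraries 1 to 4 and at 70.8 CPM in KO cTEC, and fell by 4.76 ± 0.49 (edgeR adjusted p = 0.000544). Apoa4, an apolipoprotein of intestinal lipid transport, was at 32.2 to 134 CPM in WT cTEC and not counted in the KO library, at least 372-fold lower (adjusted p = 0.00231). Lypd8, which keeps flagellated bacteria from the gut wall, was at 37.7 to 221 CPM and 0 counts, at least 466-fold lower (adjusted p = 0.0107), a limit of 239-fold without WT cTEC 1. Cdhr5, a microvillar protocadherin, was at 33.4 to 75.6 CPM and 0 counts, at least 303-fold lower (adjusted p = 0.00035). In WT mTEC 9 of the 18 were higher than in WT cTEC and none lower, with a median of 1.97 against 0.06 for all genes tested, of which 13.2% were called higher. That count was 14 without WT cTEC 1, 4 without WT cTEC 3, 1 without WT mTEC 1 and 2 without WT mTEC 2. In KO mTEC the median was -0.07, and none was called.

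Ptf1a (Entrez 19213, chromosome 2, 19445663 to 19447501, mm10) had few counts in every cTEC library. It was at 0.499, 0.369, 0.38 and 0.658 CPM in WT cTEC libraries 1 to 4, with 7, 5, 7 and 12 counts, and at 0 counts in KO cTEC. It was at 4.79 and 4.07 CPM in WT mTEC (87 and 77 counts) and at 0.452 CPM (5 counts) in KO mTEC. The WT mTEC libraries were thus far above the other 6. Ptf1a was higher in WT mTEC than in WT cTEC by 3.19 ± 0.66 (edgeR adjusted p = 0.0112), a call lost without WT mTEC 1 (0.119) or WT mTEC 2 (0.11). KO cTEC was at least 2.47-fold below the WT cTEC mean (adjusted p = 0.0545). In KO mTEC the log2 fold change was -3.27 ± 1.15, which did not pass (adjusted p = 0.538, unadjusted p = 0.0209). The WT mTEC mean was 9.8 times the KO mTEC value, with a 95% interval of 4.2 to 30.2 for counting error alone.

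The 16 other pancreatic genes, of which 13 were tested, were also mostly under or near the limit of detection in cTECs. In KO cTEC 13 of the 16 had no count, against 11% of all genes tested, a share over genes that passed the filter. The KO library lay below every WT cTEC library for 3 of the 16, against 32.9% of all genes tested. It lay within them for 13, against 38.1%. Prss2, a trypsinogen that shares reads with near-identical copies and is uncertain for that reason, was at 6.35, 9.88, 56.3 and 35.1 CPM in WT cTEC and had no count in the KO library, at least 139-fold lower (edgeR adjusted p = 0.025), a limit of 88.7-fold without WT cTEC 3. It was the 1 gene of the list called lower (2 without WT cTEC 4), against 12.4% of all genes tested. Prss2 missed the threshold with no filter (adjusted p = 0.0617). In WT mTEC 7 of the 13 were higher than in WT cTEC, with a median of 3.83. Without WT mTEC 1 that count was 1 and without WT mTEC 2 it was 0, and of all genes tested 13.2% were called higher. Clps, the cofactor of pancreatic lipase, was at 41.3 and 32.9 CPM in WT mTEC and at 0 to 2.17 CPM in WT cTEC (adjusted p = 0.00607). Pnlip, pancreatic lipase itself, had 34 and 74 counts in WT mTEC and 1, 0, 0 and 0 counts in WT cTEC (adjusted p = 0.00606). Clps missed the threshold without WT mTEC 1 (0.0501) or WT mTEC 2 (0.0539), and Pnlip without WT mTEC 2 (0.0905). Ctrb1, a chymotrypsinogen, was at 18.2 and 16.7 CPM in WT mTEC and 0 to 4.07 CPM in WT cTEC, and did not pass (adjusted p = 0.0503), though it did without WT cTEC 1 (0.000992) or WT cTEC 4 (0.0425). In KO mTEC, Prss2 was at 7.14 CPM against 58.6 and 67.2 CPM in WT mTEC (adjusted p = 0.593), and Clps at 16.6 CPM (adjusted p = 0.872). In KO mTEC 8 of the 16 genes were below both WT mTEC libraries, 3 above both and 5 between them. The shares of all genes tested were 41.7%, 38.6% and 19.6%. The median log2 fold change of the list was -0.29, and none was called. Ctrb1 was at 14.3 CPM in KO mTEC.

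Insm1 (Entrez 53626, chromosome 2, 146221997 to 146225020, mm10), a zinc finger factor, was at 39.3, 11.7, 9.99 and 17.7 CPM in WT cTEC libraries 1 to 4 and at 0 counts in KO cTEC. It was at 93.3 and 114 CPM in WT mTEC and at 75.7 CPM in KO mTEC. The 3 mTEC libraries were above every cTEC library. KO cTEC was at least 102-fold below the WT cTEC mean of 19.7 ± 13.5 CPM (SD, n = 4; edgeR adjusted p = 0.00629), a limit of 68-fold without WT cTEC 1. WT mTEC was higher than WT cTEC by 2.40 ± 0.48 (adjusted p = 0.0108), a call lost without WT mTEC 1 (0.0546) or WT mTEC 2 (0.0901). In KO mTEC the log2 fold change was -0.45 ± 0.72 (adjusted p = 0.935).

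Neurod1 (Entrez 18012, chromosome 2, 79452637 to 79456636, mm10) had 12, 6, 8 and 0 counts in WT cTEC libraries 1 to 4 and 0 counts in KO cTEC. It had 10 and 28 counts in WT mTEC and 4 counts in KO mTEC. These are levels of 0 to 1.48 CPM, and 1 library reached 1 CPM. KO cTEC was at least 2.25-fold below the WT cTEC mean, and WT cTEC 4 was also at 0 counts. With no filter, none of the 3 comparisons passed for Neurod1 (adjusted p = 0.29 in cTECs, 0.893 in mTECs and 0.498 for WT mTEC against WT cTEC). A difference was not detectable at this depth.

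Of 19 other neuroendocrine genes, 17 tested, 10 were lower and none higher in KO cTEC, against 12.4% of all genes tested called lower (median -4.00 with genes at 0 counts at their limit). Chga, a protein of secretory granules, was at 155, 72.4, 20.5 and 29 CPM in WT cTEC and had no count in the KO library, at least 359-fold lower (adjusted p = 0.0143). Resp18, also a granule protein, was at 15.9 to 126 CPM in WT cTEC with no count in the KO library, at least 308-fold lower (adjusted p = 0.0157), and was higher in WT mTEC by 2.36 ± 0.68 (adjusted p = 0.0375). Without WT cTEC 1 both limits were lower, at 211-fold for Chga and 193-fold for Resp18. Isl1, a LIM homeodomain factor of endocrine cells, was at 164 to 258 CPM in WT cTEC and at 234 CPM in KO cTEC (adjusted p = 0.795), and was lower in WT mTEC by 1.41 ± 0.23 (adjusted p = 0.00487). In WT mTEC 6 of the 17 were higher than in WT cTEC, against 13.2% of all genes tested, and 1, Isl1, lower. The count of higher genes was 3 without WT cTEC 3, 2 without WT mTEC 1 and 0 without WT mTEC 2, where Isl1 also missed the threshold (adjusted p = 0.0648). Resp18 missed it when any 1 of cTEC libraries 3 and 4 or the mTEC libraries was left out (0.0654 to 0.182). Without WT cTEC 1, 1 gene of the list was higher in KO cTEC.

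Markers of the parathyroid and thyroid, glands that lie beside the thymus and use endocrine genes, were read beside Insm1. Their list, which includes Pth and Gcm2 of the parathyroid, summed to 16 to 103 CPM in WT cTEC, 0.707 CPM in KO cTEC, 124 to 173 CPM in WT mTEC and 379 CPM in KO mTEC. In KO cTEC 4 of its 6 genes were at 0 counts, among them Gcm2, Casr and Calca, and 2 of the 6 were called lower. Pth was at 84.9, 22.7, 0.217 and 1.21 CPM in WT cTEC libraries 1 to 4 and at 255 CPM in KO mTEC. Library 1 was thus the highest of the WT cTEC libraries for both Pth and Insm1. The part of these cells in the Insm1 values was not tested.

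Myog (Entrez 17928, chromosome 1, 134290004 to 134292548, mm10), the myogenic factor of terminal differentiation, was at 7.42, 16.2, 16 and 10.4 CPM in WT cTEC libraries 1 to 4 and at 0 counts in KO cTEC. It was at 19 and 15.9 CPM in WT mTEC and 23.9 CPM in KO mTEC. The mTEC libraries overlapped with or were just above the WT cTEC libraries. KO cTEC was at least 64.8-fold below the WT cTEC mean of 12.5 ± 4.33 CPM (SD, n = 4; edgeR adjusted p = 0.000914), and the test of the difference of KO effects passed (adjusted p = 0.00224). WT mTEC against WT cTEC gave 0.48 ± 0.36 (adjusted p = 0.34), and KO mTEC against WT mTEC 0.45 ± 0.50 (adjusted p = 0.883).

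Of 19 other muscle genes, 17 tested, 7 were lower and none higher in KO cTEC, against 12.4% of all genes tested called lower (median -2.93 with genes at 0 counts at their limit). Ttn, the giant sarcomere protein, fell by 2.93 ± 0.39 (edgeR adjusted p = 0.00175), from 35.3, 67.2, 52.8 and 49.1 CPM to 6.68 CPM. Des, the muscle intermediate filament protein, fell by 2.35 ± 0.48 (adjusted p = 0.0124). Mylpf, a myosin light chain of fast muscle, fell by 1.83 ± 0.52 (adjusted p = 0.0438). Mymk, the myoblast fusion protein, was at 1.07 to 4.29 CPM in WT cTEC with no count in the KO library, at least 12.2-fold lower (adjusted p = 0.0188). Myl1, a myosin light chain, had 1 count in KO cTEC, and the WT mean was 45.6 times that value (95% interval 8.18 to 1801, counting error alone; adjusted p = 0.0119). Of the 17, 7 were higher in WT mTEC than in WT cTEC, against 13.2% of all genes tested, among them Ttn (1.40 ± 0.23, adjusted p = 0.00505) and Myh3, an embryonic myosin, which had 82 and 194 counts in WT mTEC and 0 to 9 counts in WT cTEC (adjusted p = 0.0121). Without WT mTEC 1 or WT mTEC 2, 4 genes were lower in KO cTEC and Mylpf was not among them (0.0821 and 0.0804), and 2 and 1 were higher in mTECs. Ttn missed the threshold for mTECs without WT mTEC 2 (0.0559), and Myh3 without WT mTEC 1 (0.0504) or WT mTEC 2 (0.119). In KO mTEC the median was 0.38 and 11 of the 19 were above both WT libraries, against 38.6% of all genes tested, with none called. Markers of muscle precursors (Pax7, Pax3, Myf5, Cdh15 and Chrd) summed to 10.2 to 29 CPM in WT cTEC, 8.93 CPM in KO cTEC, 12.9 to 13.3 CPM in WT mTEC and 15.6 CPM in KO mTEC. Of these 5 markers 1 was called lower and none higher in KO cTEC. Pax7, which defines satellite cells, was at or under 0.163 CPM in every cTEC library, and Myf5 had no count in WT cTEC. The part of these cells in the Myog values was not tested.

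Foxi1 (Entrez 14233, chromosome 11, 34204341 to 34208089, mm10) was at 6.99, 10.6, 5.81 and 10.9 CPM in WT cTEC libraries 1 to 4 and at 0 counts in KO cTEC. It was at 8.91 and 7.29 CPM in WT mTEC and 8.5 CPM in KO mTEC, all within the WT cTEC range. KO cTEC was at least 44.4-fold below the WT cTEC mean of 8.57 ± 2.55 CPM (SD, n = 4; edgeR adjusted p = 0.00117), and the test of the difference of KO effects passed (adjusted p = 0.00356). WT mTEC against WT cTEC gave -0.08 ± 0.39 (adjusted p = 0.896), with a sign that turned without WT cTEC 2 (0.03), WT cTEC 4 (0.03) or WT mTEC 2 (0.06). KO mTEC against WT mTEC gave 0.07 ± 0.55 (adjusted p = 0.994).

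Of 13 other ionocyte genes 3 were lower and none higher in KO cTEC, against 12.4% of all genes tested called lower (median -3.43 with genes at 0 counts at their limit). Cftr, a chloride channel, fell by 3.49 ± 0.50 (edgeR adjusted p = 0.00254), from 18.6, 25, 12.9 and 16.2 CPM to 1.61 CPM. Atp6v1c2, a subunit of the proton pump, was at 4.13 to 6.71 CPM in WT cTEC and 0.321 CPM (5 counts) in KO cTEC, and fell by 4.09 ± 0.73 (adjusted p = 0.00677). Foxi2, a relative of Foxi1, was at 0.713, 4.28, 1.47 and 6.97 CPM in WT cTEC with no count in the KO library, at least 17.4-fold lower (adjusted p = 0.0443), a limit of 11.2-fold without WT cTEC 4. Foxi2 was also at 0 counts in KO mTEC, against 2.09 and 2.17 CPM in WT mTEC, at least 7.85-fold lower, and did not pass (adjusted p = 0.509). Slc26a4, an anion exchanger, was at 9.49, 0.885, 0.652 and 6.53 CPM in WT cTEC and 0 counts in KO cTEC, and did not pass (adjusted p = 0.0723). In WT mTEC 1 of the 13 was higher than in WT cTEC and 1 was lower, against 13.2% and 13.9% of all genes tested. Atp6v1b1, a subunit of the same pump, had means of 6.22 CPM in WT cTEC and 1.46 CPM in WT mTEC. Atp6v1g3, another pump subunit, was higher in WT mTEC than in WT cTEC by 2.24 ± 0.69 (edgeR adjusted p = 0.0432). That call was lost when any 1 of cTEC libraries 2 and 3 or the mTEC libraries was left out (0.0737 to 0.192). In KO cTEC 6 genes were lower without WT cTEC 4. Foxi2 missed the threshold there in the same 4 settings (0.0535 to 0.0793), and Slc26a4 passed without WT cTEC 3 (0.0416).

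Over the 7 lineages together, 108 of 115 listed companion genes were tested. In KO cTEC 47 were lower and 1 was higher by edgeR (3 higher without WT cTEC 1 and none without WT cTEC 3), against 12.4% and 5.1% of all genes tested. DESeq2 called 65 lower and limma-voom 13 lower. Of the companions named above as lower in KO cTEC, 14 missed the threshold with limma-voom, from Ccl20 (adjusted p = 0.0575) to Resp18 (0.422). In WT mTEC 33 were higher than in WT cTEC and 3 were lower, against 13.2% and 13.9% of all genes tested, but without WT cTEC 3 20 were higher, without WT mTEC 1 6 higher and 1 lower, and without WT mTEC 2 3 higher and 1 lower. In KO mTEC edgeR and limma-voom called none, and 8 had an unadjusted p under 0.05 by edgeR. DESeq2 called 2 lower there, both in the neuroendocrine list. The difference of KO effects, mTEC minus cTEC, was called above 0 for 32 and below 0 for none, against 6.16% and 0.644% of all genes tested. DESeq2 called 44 and limma-voom 4.

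**Figure D3:**
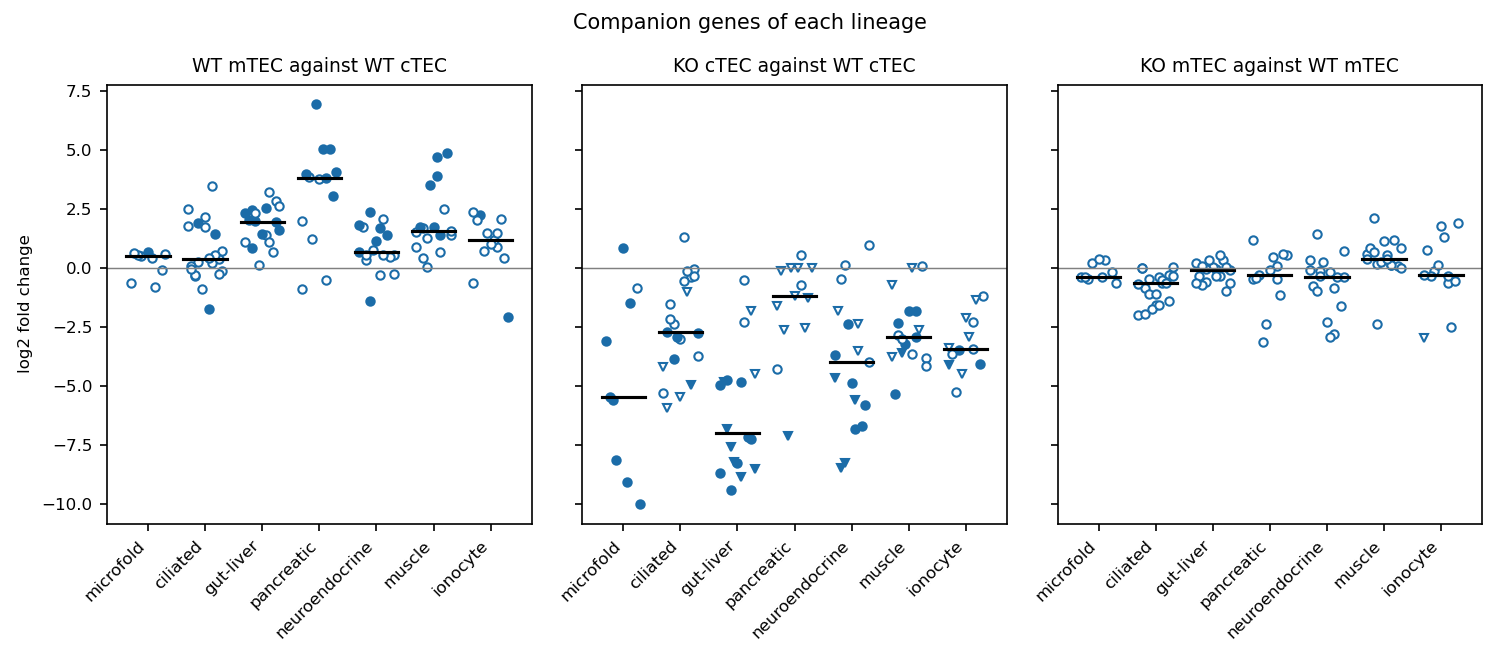
Log2 fold change of the tested companion genes of each lineage in 3 comparisons; each point is 1 gene, filled points passed an adjusted p under 0.05, triangles are genes with no count in the KO library drawn at their limit (or at 0 where the WT mean is also under 3 counts), and black lines are medians. In KO cTEC the medians lie below 0 in all 7 lists, lowest for gut and liver genes (-7.00), and in KO mTEC they lie between -0.65 and 0.38.

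Markers of other cells moved with the same libraries. The medullary list (Aire, Fezf2, Tnfrsf11a, Cd80, Ccl21a and Krt14) summed to 2095 to 2462 CPM in WT cTEC and 1034 CPM in KO cTEC, and 5 of its 6 genes were called lower there. It summed to 2035 to 2145 CPM in WT mTEC and 2329 CPM in KO mTEC, so the sum does not separate the WT populations. Nearly all of the KO sum was Krt14 (1027 CPM), while Aire was at least 349-fold below the WT cTEC mean, Fezf2 was at 0.321 CPM against 86.1 to 120.3 CPM and Tnfrsf11a, the receptor RANK, at 4.18 CPM against 134 to 156 CPM. In KO mTEC these genes were at 457 CPM (Aire), 387 CPM (Fezf2) and 219 CPM (Tnfrsf11a), and none was called against WT mTEC. Thymic tuft cell markers, of a further mimetic lineage, summed to 798 to 1395 CPM in WT cTEC and 38.2 CPM in KO cTEC, with Trpm5 and Gnat3 at 0 counts and 5 of 5 called lower. They summed to 497 to 541 CPM in WT mTEC and 522 CPM in KO mTEC, and 4 of 5 were called lower in WT mTEC than in WT cTEC. The dendritic cell and macrophage list summed to 168 to 256 CPM in WT cTEC and 12.6 CPM in KO cTEC, with Adgre1 and Flt3 at 0 counts. Its sum was 808 to 1071 CPM in WT mTEC and 668 CPM in KO mTEC. The erythroid list summed to 225 CPM in KO cTEC and 534 CPM in KO mTEC, against 10.8 to 35.3 CPM in the WT libraries. Of its 3 markers found, 1 was at 0 counts in each KO library, and 2 were called higher in KO cTEC and none in KO mTEC. In KO mTEC the fibroblast list summed to 1130 CPM, against 147 to 179 CPM in WT mTEC. It summed to 714 to 922 CPM in WT cTEC and 1048 CPM in KO cTEC. The part of these differences in the values of the lineage factors was not tested.

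Per kilobase of gene length, which allows levels of different genes to be compared, Spib led in WT cTEC (90.3 CPM per kb), WT mTEC (74.7) and KO mTEC (81.7). In WT cTEC it was followed by Myog (8.44), Insm1 (6.5), Sox8 (5.91), Hnf4g (4.3), Foxj1 (4.29) and Foxi1 (3.64), neighbours whose library values overlapped, and then by Ptf1a (0.316), Hnf4a (0.301) and Neurod1 (0.174), which overlapped with each other and lay below the rest. In WT mTEC Insm1 came second (34.3), ahead of Myog (11.8) and Hnf4g (10.4). KO mTEC had the same order from Spib through Sox8, with Hnf4a ahead of Ptf1a. In KO cTEC the order was led by Hnf4g (2.86), then Sox8 (0.986), Spib (0.438) and Foxj1 (0.0748).

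The 4 WT cTEC libraries were not alike in the members, and they did not share 1 order. Spib, Sox8 and Myog were highest in library 2, for Myog within counting error of library 3 (16.2 CPM, 95% interval 14.2 to 18.5, and 16 CPM, 14.2 to 17.9). Hnf4a, Hnf4g, Insm1 and Neurod1 were highest in library 1, and Foxj1, Ptf1a and Foxi1 in library 4. For Hnf4a, Neurod1, Ptf1a and Foxi1 the highest library also overlapped with another within counting error. The coefficient of variation over the 4 libraries was 28.3% (Ptf1a) to 80.7% (Neurod1), against a median of 25.2% for all genes tested. Ptf1a had 5 to 12 counts and Neurod1 0 to 12 in these libraries, so counting error enters both values. Among the members with more counts it ran from 29.8% (Foxi1) to 68.7% (Insm1). Of the microfold companions 6 of 9 were also highest in library 2, as were 22.3% of all genes tested. Of the gut and liver companions 12 of 18, and of the neuroendocrine ones with a count 10 of 18, were highest in library 1, as were 32.6% of all genes tested. Of the ciliated genes 15 of 21 were highest in library 1, and 4 in library 4 with Foxj1, against 32.6% and 26.4% of all genes tested. Of the muscle genes with a count 2 of 17 were highest in library 2 with Myog, and 8 in library 4, against 22.3% and 26.4%. Of the ionocyte genes 7 of 13 were highest in library 2 and 3 in library 4, against the same 2 shares. The Foxi1 levels of these 2 libraries overlapped within counting error. Of the pancreatic genes with a count 3 of 15 were highest in library 4 with Ptf1a, against 26.4%.

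**Figure D4:**
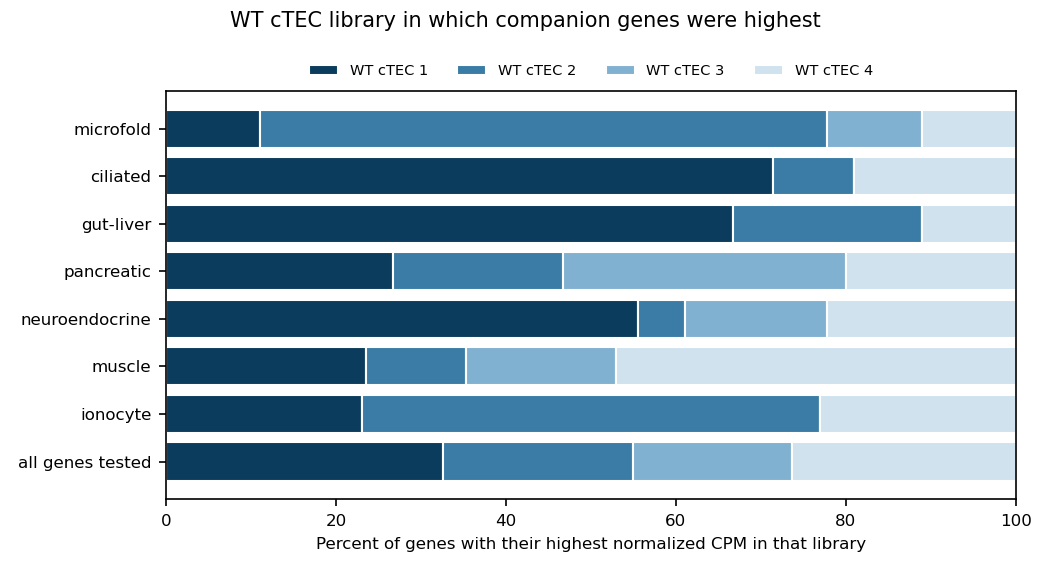
Share of the companion genes of each lineage that had their highest normalized CPM in each of the 4 WT cTEC libraries, beside all genes tested; each bar sums to 100%. Library 2 holds 66.7% of the microfold genes, and library 1 holds 66.7% of the gut and liver genes and 71.4% of the ciliated genes.

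The genes whose pattern was most like that of each member were ranked by Pearson's r of log2(CPM + 1) over the 8 libraries, which share the KO cTEC library and the difference between populations, so many genes reach a high r. For Spib they were Fcgbp (r = 0.999), a mucus protein, and Ceacam1 (0.994). Fcgbp was at 1071 to 1914 CPM in WT cTEC and 25.2 CPM in KO cTEC. Pllp had an r of 0.98 to Sox8, and for Foxj1 they were Gal3st1 (0.996) and Tjp3 (0.986). For Hnf4a they were Pmp2 (0.99) and A4galt (0.985), both of which were also low in WT cTEC 4. For Hnf4g they were Tmem19 (0.982) and Unc93a2 (0.976), and for Ptf1a Gpx5 (0.985) and Atp12a (0.979). For Insm1 they were Cadps (0.998), which primes secretory vesicles, and Ddc (0.997), an enzyme of monoamine synthesis. For Myog they were Nfkbid (0.991) and Sprr1a (0.985), and for Foxi1 Dusp4 (0.994) and Cyp27a1 (0.993). The number of genes with r over 0.9 ran from 107 for Sox8 to 1117 for Insm1.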

How the data were processed

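RNA of 8 libraries was sequenced as paired ends from a low-input full-length cDNA kit, per the labels' protocols. The deposited values are raw counts per Entrez gene, made by the authors with featureCounts on mm10, per the submitters' processing notes. Not given in the sources used here are versions, aligner, annotation and strand setting, so overlapping and antisense genes cannot be told apart. A series-wide table of 8 columns was not used because its columns match no label. Gene lengths per the file headers were used for levels per kilobase. Symbols (25275 of 27179 identifiers) and positions came from RefSeq GRCm38.p6. Rows with no symbol (0.887 to 1.68% of a library's counts) were tested but not named.

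TMM scaling and the robust quasi-likelihood test of edgeR 4.0.16 in R 4.3.3 were applied to these counts, with 1 mean per group over all 8 libraries (4 residual degrees of freedom), for the 18163 genes that reached 1 CPM in 2 or more libraries. A gene was called at an adjusted p under 0.05, two-sided. The SE is the absolute log2 fold change over the square root of F. A count of 0 was given a limit of 3 counts per library, 0.159 to 0.271 CPM. Limits and the exact 95% intervals cover counting error only, since reads carry no molecular identifiers. Alternatives were other scalings, no filter, DESeq2 1.42.0, limma-voom (limma 3.58.1), WT libraries alone, a replicate block and each WT library left out. The members and lists were chosen with earlier results of these data known. Named companions were the 3 most abundant of each list and the called gene with the largest change per comparison, and named look-alikes the 2 highest r per tested member; some of these are not reported here.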

Additional observations from a re-analysis of the deposited data

Results flagged for a closer look

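For 5 members the KO effect differed between mTECs and cTECs by the test of the difference itself, on the log2 scale and as mTEC minus cTEC. The difference was 7.81 for Spib (adjusted p = 0.000815), 6.04 for Foxj1 (adjusted p = 0.0127), 10.84 for Insm1 (adjusted p = 0.0247), 11.10 for Myog (adjusted p = 0.00224) and 10.17 for Foxi1 (adjusted p = 0.00356). Insm1, Myog and Foxi1 had no count in KO cTEC, so the sizes of their fitted differences depend on the prior count of edgeR and are no bounds. Each KO effect rests on 1 KO library, and Mcl1 itself was at 8.23 CPM in KO cTEC and 78.7 CPM in KO mTEC.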

How the results depend on the processing

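The number of members called in WT mTEC against WT cTEC was 3, and 0 to 3 when each WT library was left out; 0 belongs to WT mTEC 1 and to WT mTEC 2. For all genes it was 4912, and 620 to 6761. In KO cTEC limma-voom called 1 member and 1726 genes against 6 and 3179; leaving out each library gave 5 to 6 members and 2262 to 4179 genes. In KO mTEC DESeq2 called 141 genes, and leaving out each library 0 to 7 genes; DESeq2 gave Hnf4a and Ptf1a no adjusted p there. For the difference of KO effects DESeq2 called 2041 and limma-voom 104 genes and 0 members, against 1236 and 5; leaving out each library gave 652 to 1848 genes and 4 to 6 members. The cause of these changes was not tested. Signs of values that were not called turned in leaving out each library, over these ranges: -0.23 to 0.058 for Foxi1 in WT mTEC against WT cTEC (above 0 without WT cTEC 2, WT cTEC 4 or WT mTEC 2), -0.45 to 0.087 for Sox8 (above 0 without WT mTEC 1) and -0.069 to 0.22 for Foxi1 (below 0 without WT mTEC 2) in KO mTEC, -0.20 to 0.43 for Hnf4g in the difference of KO effects (below 0 without WT cTEC 1), -0.55 to 0.086 for Dnah9 in KO cTEC (above 0 without WT cTEC 1), and -0.28 to 0.43 for Aire and -0.12 to 0.14 for Fezf2 in KO mTEC (both below 0 without WT mTEC 1). With library totals the last pair was -0.0081 and -0.032. Both WT groups have libraries numbered 1 and 2, whose deviations from the group mean correlated at -0.16 and -0.06 over 18163 genes, so these numbers were not used as pairs. A replicate block over these 4 libraries called 1 member and 2045 genes, and the same libraries without the block, a setting added after seeing the data, 1 member and 2784 genes. The KO comparisons have no blocked fit because KO libraries carry no number. With library totals in place of TMM the share of calls that were higher in WT mTEC was 44.1%, and with limma-voom 58.8%, against 48.7%. In KO cTEC that share was 54.8% with limma-voom against 29.2%. Depth limits Neurod1, Ptf1a and Hnf4a most, at 0 to 30 counts in each cTEC library.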
